A study of Mus musculus with 55 samples.

Results

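The genes described here are 10 markers of natural killer (NK) cells and their killing machinery: the surface receptors Klrk1, Klrb1c, Klre1 and Ncr1, the transcription factor Eomes, the granule genes Nkg7, Gzma, Gzmb and Prf1, and the chemokine gene Ccl5. They were chosen by symbol, with earlier results of these data known. Each symbol matched 1 Ensembl identifier in the counts of both days, so the set is 10 of 56941 genes at day 7 and 10 of 57186 at day 28. The identifiers are ENSMUSG00000030149 for Klrk1, ENSMUSG00000030325 for Klrb1c, ENSMUSG00000050241 for Klre1, ENSMUSG00000062524 for Ncr1, ENSMUSG00000032446 for Eomes, ENSMUSG00000004612 for Nkg7, ENSMUSG00000023132 for Gzma, ENSMUSG00000015437 for Gzmb, ENSMUSG00000037202 for Prf1 and ENSMUSG00000035042 for Ccl5. All 10 passed the filter on low counts at both days, and the lowest count of any of them in any library was 2.

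NK cells are lymphocytes that kill stressed, infected or transformed cells without prior priming. Their receptors weigh activating signals against inhibitory ones, and an activated cell releases granules in which perforin opens a path for granzymes into the target. Infarcted hearts draw in lymphocytes along with neutrophils and monocytes as they heal. Many of these genes are shared with cytotoxic CD8 T cells and some with innate-like T cells, so a bulk tissue level does not name the cell that made the transcript. Klrb1c and Ncr1 are the closest of the 10 to markers of NK cells and related innate lymphoid cells.

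Every library was made from the infarcted left ventricle of C57BL/6J mice whose coronary artery had been permanently ligated, so controls carried an infarct too. The day 7 set holds 8 non-diabetic (ND), 8 type 1 diabetic (T1D) and 8 type 2 diabetic (T2D) libraries, and the day 28 set 11, 10 and 10. The titles give the diabetic state and the day, while the series' design text names day 7 alone. Library names give controls as Ctrl, T1D as hi STZ and T2D as lo STZ HFFD, abbreviations the labels do not expand, so the groups differ by treatment as well as by the type of diabetes in the titles. The sources used here give no age or pooling, and nothing says that replicates are separate animals, so p-values measure a spread between libraries that may be technical. Library totals ran from 10756242 to 51158036 counts at day 7 and from 48105347 to 92869315 at day 28. Day and sequencing project cannot be told apart, so levels are compared within a day.

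The labelled tissue matched its markers, with Myh6 of cardiomyocytes at 61.4 to 8470 CPM (the counts-per-million unit) at day 7 and 1940 to 20700 at day 28, and Ptprc (CD45, on all leukocytes) at 88.5 to 245 and 15.6 to 176. Some libraries stood apart. At day 7, ND replicate 4 had the lowest total and T1D replicate 4 the lowest Myh6, with Cma1 of mast cells at 13.5 CPM. At day 28, T2D replicate 4 had a summed level of 14 T cell markers of 143 CPM and the lowest Myh6. Without ND and T1D replicate 4 at day 7, a setting chosen after seeing the data, edgeR still called 3 of the 10 in T1D against ND, 10 in T2D against ND and 5 in T1D against T2D. Of all genes it called 3986, 1256 and 740 in these comparisons, in either direction. Klrb1c (log2 change 0.73, adjusted p = 0.0467) then replaced Gzma (0.66, adjusted p = 0.0708) in T1D against ND, and Prf1 (-0.93, adjusted p = 0.0444) replaced Ncr1 (-0.87, adjusted p = 0.0634) in T1D against T2D.

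The promoters are shown because motifs of factors known to act in NK cells can be read in them. RefSeq promoters (GRCm38.p6) were at hand for 9 of the 10 genes, all but Ccl5. In the 250 bases before each start, on both strands, the RUNX core TGTGGT (reverse ACCACA) occurred in 8 of the 9, all but Eomes, against 14.0% of 32851 promoter windows of all genes. A gene of the 9 counted if any of its windows matched, while this and the following percentages are per window, over 27025 genes. The T-box core AGGTGT (reverse ACACCT), bound by Eomes and Tbx21, occurred in Nkg7, Prf1 and Gzma (11.8% of all windows). The STAT form TTCNNNGAA was found in Nkg7 (7.0%), and GAAANNGAA, part of an interferon response element, in Klrk1, Eomes and Gzma (7.1%). No RUNX match overlapped a T-box match in these genes. These are letter matches, not measured binding. The 150 bases before the start are printed 5′ to 3′ on the gene's strand, with RUNX and T-box matches in capitals, for 3 receptors and 4 granule genes.
Klrk1, chr6:129623865-129624014, minus strand: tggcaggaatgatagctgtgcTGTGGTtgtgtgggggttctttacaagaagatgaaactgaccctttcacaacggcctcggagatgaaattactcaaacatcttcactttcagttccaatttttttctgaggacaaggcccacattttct
Klrb1c, chr6:128788642-128788791, minus strand: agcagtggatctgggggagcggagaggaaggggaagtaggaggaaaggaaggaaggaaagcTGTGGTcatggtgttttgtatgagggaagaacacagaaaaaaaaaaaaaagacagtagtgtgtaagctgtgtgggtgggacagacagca
Ncr1, chr7:4337565-4337714, plus strand, first of its listed starts: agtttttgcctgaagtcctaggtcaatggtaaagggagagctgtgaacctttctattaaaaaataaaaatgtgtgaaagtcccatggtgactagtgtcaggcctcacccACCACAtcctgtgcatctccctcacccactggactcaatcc
Nkg7, chr7:43436988-43437137, plus strand: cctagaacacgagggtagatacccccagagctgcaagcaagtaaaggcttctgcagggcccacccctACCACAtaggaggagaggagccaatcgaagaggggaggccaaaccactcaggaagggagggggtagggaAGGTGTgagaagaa
Prf1, chr10:61297686-61297835, plus strand: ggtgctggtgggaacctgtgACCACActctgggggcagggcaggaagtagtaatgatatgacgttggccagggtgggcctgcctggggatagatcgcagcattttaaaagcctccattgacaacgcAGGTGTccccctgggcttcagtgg
Gzma, chr13:113100982-113101131, minus strand: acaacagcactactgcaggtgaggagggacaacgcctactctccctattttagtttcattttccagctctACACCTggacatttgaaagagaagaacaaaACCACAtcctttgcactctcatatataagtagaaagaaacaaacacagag
Gzmb, chr14:56262335-56262484, minus strand: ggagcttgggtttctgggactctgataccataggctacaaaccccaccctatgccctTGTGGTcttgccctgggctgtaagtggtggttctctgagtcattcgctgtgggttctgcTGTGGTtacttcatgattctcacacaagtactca
Klrk1, Klrb1c and Klre1 all lie on chromosome 6, where the NK receptor genes are clustered, and Ncr1 and Nkg7 lie on chromosome 7. Eomes is on chromosome 9, Prf1 on 10, Ccl5 on 11, Gzma on 13 and Gzmb on 14. In the annotation Klrb1c shares bases on its own strand with Gm44511, which had 0 counts in every library, and Eomes lies against the antisense gene Gm33460, which had at most 8.

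Per kilobase of exon, Ccl5 was the most abundant of the 10 genes in every group. In ND tissue at day 7 the median level was 5.57 CPM per kilobase for Ccl5, 1.89 for Nkg7 and 0.926 for Gzma. Gzmb (0.354), Klrk1 (0.262), Ncr1 (0.249), Prf1 (0.243), Klrb1c (0.191), Klre1 (0.143) and Eomes (0.143) followed, and the ranges of these neighbours overlapped. T2D tissue at day 7 kept Ccl5 (10.9), Nkg7 (4.26), Gzma (1.63) and Gzmb (0.984) in front, with Eomes last at 0.357. At day 28 the ND medians ran from 2.19 for Ccl5 down to 0.0775 for Eomes. All levels below are CPM on TMM-scaled library sizes, and differences are log2 changes of the first group over the second from edgeR, with a standard error (SE).

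The first comparison, T2D against ND tissue at day 7, concerns the healing infarct. All 10 genes were higher in T2D, by 0.97 to 1.64 log2 units, or 1.96 to 3.12 times (n = 8 against 8), and 0 were lower. Receptors, Eomes, granule genes and Ccl5 all took part, and for 7 of the 10 the lowest T2D library lay above the highest ND library. A call is an adjusted p at or under 0.05 over all 18165 genes tested (edgeR's quasi-likelihood test, Benjamini-Hochberg). Of all genes, 3.85% were called higher, 3.5% were called lower and 1.24% had every T2D library above every ND library. Because the 10 were chosen with earlier results of these data known, such shares here and below describe the background and do not test the set. The median change was 1.32 over the 10 and -0.03 over all genes. In bulk tissue, more cells of a type and more of these transcripts per cell cannot be told apart.

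**Figure D1:**
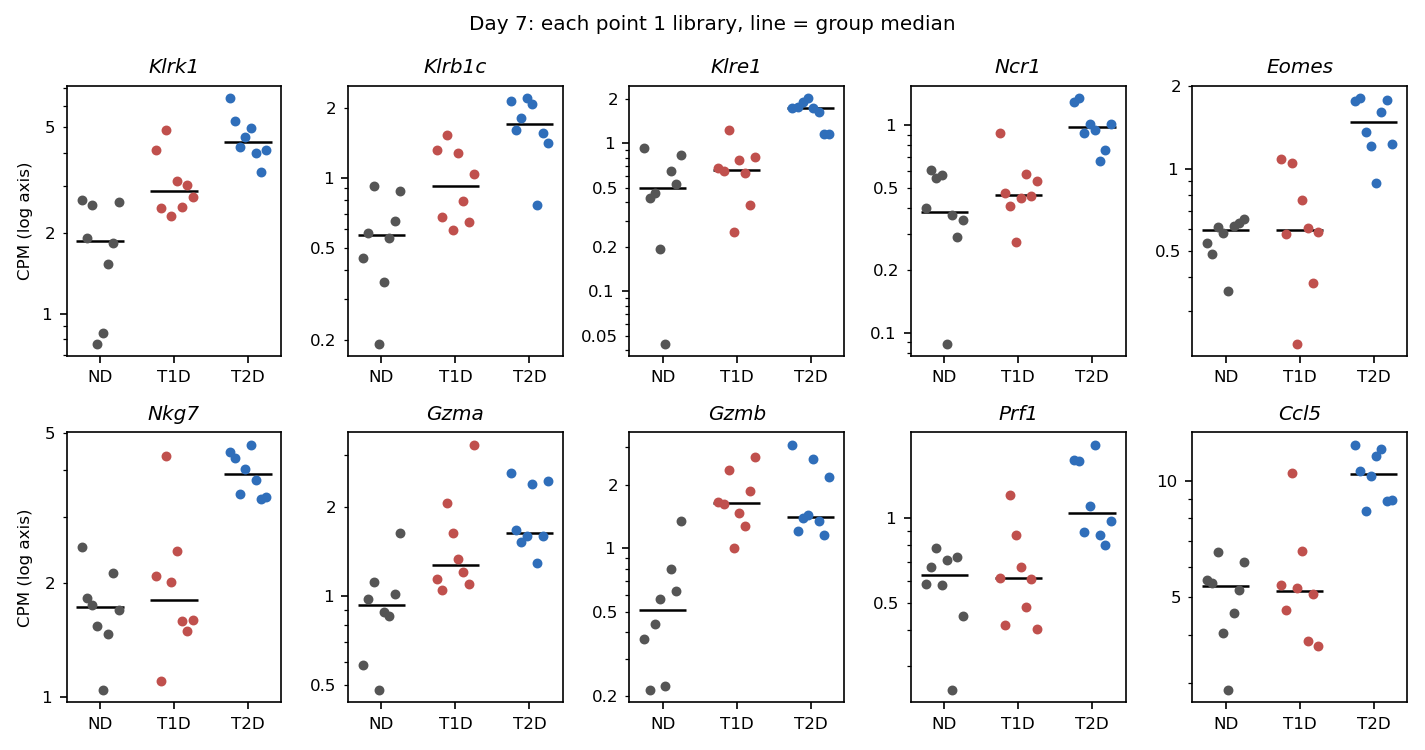
Levels in CPM (log axis) of the 10 genes in each library at day 7, by group (ND, T1D and T2D, 8 libraries each), with the group median as a line. T2D libraries lie above every ND library for Klrk1, Klre1, Ncr1, Eomes, Nkg7, Prf1 and Ccl5, while for Gzmb the T1D (1.00 to 2.71) and T2D (1.16 to 3.09) libraries overlap widely.

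Among the receptors, Klrk1 encodes NKG2D, an activating receptor for ligands that stressed cells display. Klrk1 ran from 0.771 to 2.66 CPM (median 1.88) in ND and from 3.39 to 6.43 (median 4.41) in T2D, a change of 1.30 (SE 0.221, adjusted p = 0.000686). The groups did not overlap. Klrb1c, which encodes the NK1.1 antigen of C57BL/6 mice, ran from 0.193 to 0.926 (median 0.566) in ND and from 0.761 to 2.20 (median 1.70) in T2D (1.51, SE 0.265, adjusted p = 0.000958). T2D replicate 6 was the 1 library inside the ND range. Klre1, a lectin-like NK receptor, ran from 0.0444 to 0.931 (median 0.498) in ND and from 1.16 to 2.01 (median 1.73) in T2D (1.64, SE 0.342, adjusted p = 0.00439). Ncr1, which encodes NKp46, ran from 0.0887 to 0.610 (median 0.384) in ND and from 0.674 to 1.35 (median 0.984) in T2D (1.34, SE 0.277, adjusted p = 0.00421). Neither Klre1 nor Ncr1 overlapped between the groups.

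Eomes, a T-box factor of mature NK cells and memory CD8 T cells, ran from 0.355 to 0.652 CPM (median 0.594) in ND and from 0.882 to 1.81 (median 1.48) in T2D at day 7. The change was 1.39 (SE 0.245, adjusted p = 0.000985), with no overlap. Ccl5, a chemokine made by NK and T cells among others, ran from 2.88 to 6.56 (median 5.35) in ND and from 8.36 to 12.4 (median 10.4) in T2D (1.03, SE 0.181, adjusted p = 0.000958), again with no overlap.

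Of the granule genes at day 7, Nkg7, a granule membrane protein that aids their release, ran from 1.04 to 2.50 CPM (median 1.73) in ND and from 3.35 to 4.66 (median 3.89) in T2D (1.16, SE 0.213, adjusted p = 0.00138). Prf1, perforin, ran from 0.246 to 0.780 (median 0.628) in ND and from 0.800 to 1.81 (median 1.04) in T2D (1.01, SE 0.253, adjusted p = 0.0165). Both were free of overlap, Prf1 by a narrow gap. The granzyme genes did overlap. Gzma ran from 0.482 to 1.63 (median 0.931) in ND and from 1.30 to 2.60 (median 1.64) in T2D (0.97, SE 0.249, adjusted p = 0.0184). Gzmb ran from 0.213 to 1.35 (median 0.508) in ND and from 1.16 to 3.09 (median 1.41) in T2D (1.64, SE 0.322, adjusted p = 0.00269). ND replicate 8 had the highest level of both granzymes in its group.

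Markers of other leukocytes moved in the same comparison. Of 14 T cell markers 8 were higher in T2D at day 7 and 0 lower (median change 0.86), among them Cd6, Cd3e (1.29), Cd3d and Trbc2. Their summed level was 15.0 to 33.8 CPM in ND and 36.1 to 50.2 in T2D, without overlap, and none of the 14 was at 0 across a group. Cd8a, the CD8 coreceptor, rose by 0.90 (SE 0.229, adjusted p = 0.0181), and Trdc of gamma-delta T cells by 1.22. Of 11 pan-leukocyte genes 8 rose (median 0.48, with Ptprc at 0.74), and their sum was 993 to 1530 CPM in ND and 1620 to 2070 in T2D. Of B cell markers 0 of 6 were called (median 0.03), and of plasmacytoid dendritic cell markers Bst2 alone, while Siglech was at 0.25. Of 10 monocyte and macrophage markers 7 rose (median 0.44), led by Ly6c2 (1.90) and Plac8 (1.18), and of 7 neutrophil markers 2 rose, Mmp8 (1.17) and Csf3r (0.48). Their part in the changes of the 10 was not tested. Mcpt8 of basophils had a median of 0 CPM in ND.

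All 10 genes stayed called when any single library was left out. When libraries whose names begin with the same number were summed, 5 were called, with 176 of all genes. With the mean level of the T cell list as a covariate the changes ran from 0.29 (Ccl5) to 1.34 (Gzmb) and 0 of the 10 were called, while 1880 of all genes were. With the pan-leukocyte list as a covariate 0 of the 10 were called, with changes of 1.03 to 1.64, and that fit called 2 of all 18165 genes. The summed levels of both lists did not overlap between ND and T2D, so neither fit can set list and group well apart. Cd8a, in the T cell list, also varied with the 10 within groups (r = 0.78 at day 7). No conclusion about the source of the changes is drawn from these fits.

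Genes that work with these 10 also rose in T2D tissue at day 7. Of 20 other NK receptors 9 rose and 0 fell (median 0.82). Klrc2 and Klrc1, partners of Klrd1 in the NKG2 receptors, rose by 1.47 and 1.37, and Klra7, a Ly49 receptor, by 1.53. Klrd1 itself, CD94, rose by 0.80 (SE 0.217, adjusted p = 0.0259). Reads of the near-identical Klra and Klrc copies may have been shared among them, so single members of those families are uncertain. Of 9 adaptors and kinases 6 rose, with Sh2d2a (1.39), Sh2d1b1 (0.77) and Sh2d1a (1.76) of the SAP family and TSAd first. Of 15 further granule and death ligand genes 4 rose, including Unc13d (0.50), which primes granules for fusion, and Ctsc (0.53), which activates granzymes. Of 11 other transcription factors Stat4 was the 1 that rose (0.88), and Tbx21 (T-bet) was at 0.98 (adjusted p = 0.113).

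Signals that reach NK cells were mixed in T2D tissue at day 7. Of 11 tested cytokine and receptor genes 4 rose, led by the shared interleukin receptor chains Il2rg (0.57) and Il2rb (0.96) and followed by Il18bp and Il18r1. Il15 itself was at 0.15 (adjusted p = 0.403), with 8.09 to 11.8 CPM in ND and 8.14 to 12.6 in T2D. Ifng was at most 0.276 CPM in any library and did not pass the low-count filter. Of 14 chemokine and receptor genes 3 rose, with Cxcl9 at 1.46 and Cxcl10 at 1.00. Of 14 tested ligands of NK receptors 8 rose and 0 fell, led by B2m (0.75), H2-K1 (0.77), H2-D1 (0.62) and H2-T23 (0.48), the class I genes that inhibitory receptors read. Of 12 interferon-stimulated genes, which include regulators of class I, 11 rose (median 1.02), with Irf7 at 1.39.

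In T1D against ND tissue at day 7, a smaller part of the set was higher: Gzmb, Gzma and Klrk1, 3 of 10, where 11.1% of all genes were called higher (n = 8 against 8). None of the 10 was lower, against 11.4% of all genes. The changes of all 10 were positive, from 0.14 to 1.60, with a median of 0.36 (-0.01 over all genes). No gene of the set had every T1D library above every ND library, against 0.617% of all genes.

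Gzmb ran from 1.00 to 2.71 CPM (median 1.64) in T1D at day 7, against 0.213 to 1.35 (median 0.508) in ND, and rose by 1.60 (SE 0.322, adjusted p = 0.0014, 8 of 8 libraries above the ND mean of log2 CPM). This is 3.02 times the ND level. Gzma ran from 1.05 to 3.25 (median 1.28) and rose by 0.73 (SE 0.249, adjusted p = 0.0361). Leaving out any 1 of 6 libraries ended this call, with an adjusted p of 0.119 and a change of 0.50 without T1D replicate 8, the highest of its group for both granzymes. Klrk1 ran from 2.32 to 4.88 (median 2.89) in T1D and rose by 0.75 (SE 0.221, adjusted p = 0.017). Klrk1 and Gzmb stayed called without each library.

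The other 7 genes did not pass in T1D at day 7. Klrb1c was at 0.72 (SE 0.267, adjusted p = 0.0519) and ran from 0.593 to 1.53 CPM. It was called in 6 of 24 fits that left out 1 library, with an adjusted p down to 0.0307, in DESeq2 (0.035), with RLE scaling (0.0496) and with the cardiomyocyte covariate (0.0255). Ncr1 was at 0.37, Klre1 at 0.36 and Eomes at 0.23, with intervals of 2 SE of -0.19 to 0.94, -0.33 to 1.06 and -0.27 to 0.73. Nkg7 was at 0.25, Ccl5 at 0.15 and Prf1 at 0.14 (interval -0.37 to 0.66). T1D replicate 3 was the highest of its group for Klrk1, Klrb1c, Klre1, Nkg7, Prf1 and Ccl5, and without it Nkg7 was at 0.00, with Prf1 and Ccl5 both at -0.04. That library was also the T1D maximum of Cd3e (2.87 CPM, group median 0.914), Cd8a (6.62, median 2.44) and Trdc (1.32, median 0.574). The T cell marker Cd4 was highest in T1D replicate 4 instead. The T1D and T2D comparisons of day 7 share the ND libraries, and those of day 28 likewise.

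Around these genes in T1D tissue at day 7, 2 of 20 other NK receptors rose, Cd244a (0.72) and Klrc1 (1.03), and Klrd1 was at 0.31 (adjusted p = 0.319). Further granule genes rose in 5 of 15 cases with 1 fall, led by Ctsc (0.66), Stx11 (0.56), Srgn (0.79), which packs granule proteins, and Stxbp2 (0.48), genes that myeloid cells also use. Of 9 adaptors 3 rose, Syk, Fcer1g and Sh2d2a. Cxcr6, a receptor on tissue lymphocytes, rose by 0.81 and Cxcl10 by 0.77. Of T cell markers 1 of 14 rose, Trbc2 (0.65), with Cd3e at 0.31 and Cd8a at 0.19, and the summed T cell level was 21.9 to 55.8 CPM against 15.0 to 33.8 in ND. Of pan-leukocyte genes 10 of 11 rose (median 0.45), and of gamma-delta T cell markers Tcrg-C1, Tcrg-C2 and Trdc (0.89). Myeloid markers rose too: 6 of 7 neutrophil markers (median 2.44), with Mmp8 at 1.45 and Cxcr2 at 2.44, and 7 of 10 monocyte and macrophage markers (median 0.34), with Ly6c2 at 1.52. Of fibroblast markers 6 of 8 fell (median -0.66, Col1a1 at -0.74), and of 20 cardiomyocyte markers (median of all 20 -0.76) Mb and Cox6a2 fell. The part of the neutrophil, macrophage and fibroblast shifts in the changes of the 10 was not tested. With the pan-leukocyte list as a covariate 0 of the 10 and 1 of all genes were called, while the changes were 1.17 for Gzmb, 0.86 for Gzma and 0.63 for Klrk1. With the T cell covariate Gzmb (1.52) and Klrk1 (0.57) were called and Gzma (0.65, adjusted p = 0.0606) was not.

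Set directly against T2D at day 7, T1D tissue had 5 of the 10 genes lower and 0 higher, where 1.19% of all genes were called lower and 1.51% higher (n = 8 against 8). Klre1 fell by 1.28 log2 units (SE 0.332, adjusted p = 0.0388), with 0.251 to 1.22 CPM against 1.16 to 2.01. Eomes fell by 1.15 (SE 0.239, adjusted p = 0.0122) and Ncr1 by 0.97 (SE 0.266, adjusted p = 0.0484). Nkg7 fell by 0.92 (SE 0.209, adjusted p = 0.0208) and Ccl5 by 0.88 (SE 0.180, adjusted p = 0.0115). In 4 of these 5, all but Eomes, 7 of 8 T1D libraries lay below every T2D library, and none of the 10 was free of overlap (0.336% of all genes had every T1D library below every T2D library). The exception for Klre1, Nkg7 and Ccl5 was T1D replicate 3.

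The granzymes were not called lower in T1D than in T2D at day 7, and whether their changes differed from those of the other genes was not tested. Gzmb was at -0.05 (interval -0.65 to 0.55), with medians of 1.64 CPM in T1D and 1.41 in T2D, and Gzma at -0.24 (interval -0.72 to 0.24). Prf1 was at -0.87 (adjusted p = 0.0559), Klrb1c at -0.79 (0.0895) and Klrk1 at -0.55 (0.157), intervals of which all lay below 0. The count of 5 moved between 2 and 6 as single libraries were left out, with 2 without T1D replicate 6 or T1D replicate 8. Of these 24 fits, Ncr1 lost its call in 20, Klre1 in 10 and Nkg7 in 2, while Eomes and Ccl5 kept theirs in all. With the T cell covariate 0 of the 10 and 0 of all genes were called.

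**Figure D2:**
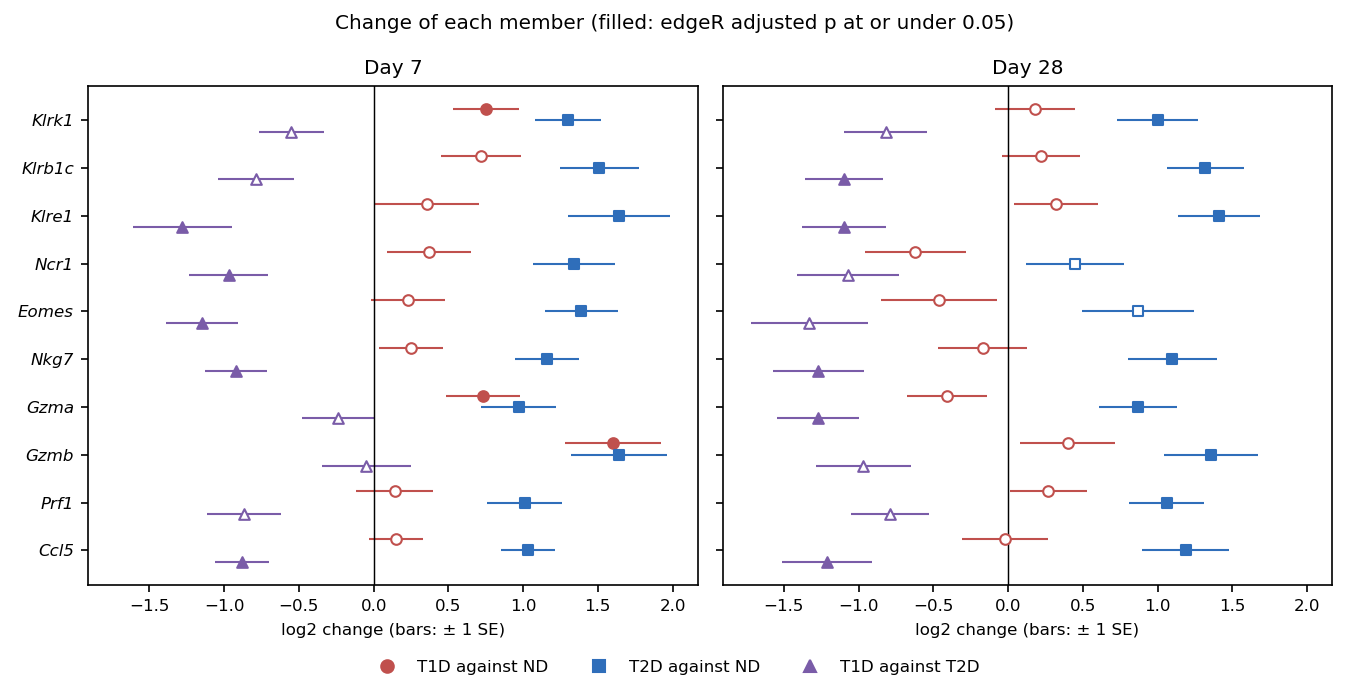
The log2 change of each gene (x axis, bars of 1 SE) in the 3 comparisons of each day, with filled markers for an adjusted p at or under 0.05. At day 7 the T2D markers (squares) lie between 0.97 and 1.64, and the T1D markers (circles) between 0.14 and 0.75 apart from Gzmb at 1.60.

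The balance of granzymes and receptors in single libraries was looked at after these values were known and is a description. At day 7 the ratio of Gzmb to Prf1 CPM had a median of 0.752 (0.312 to 3.25) in ND, 2.67 (1.16 to 6.67) in T1D and 1.51 (0.763 to 2.24) in T2D. The summed level of both granzymes over that of the 4 receptors had a median of 0.516 in ND, 0.586 in T1D and 0.388 in T2D, and the ranges overlapped. At day 28 these medians were 0.361, 0.314 and 0.298. The balance itself was not tested.

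**Figure D3:**
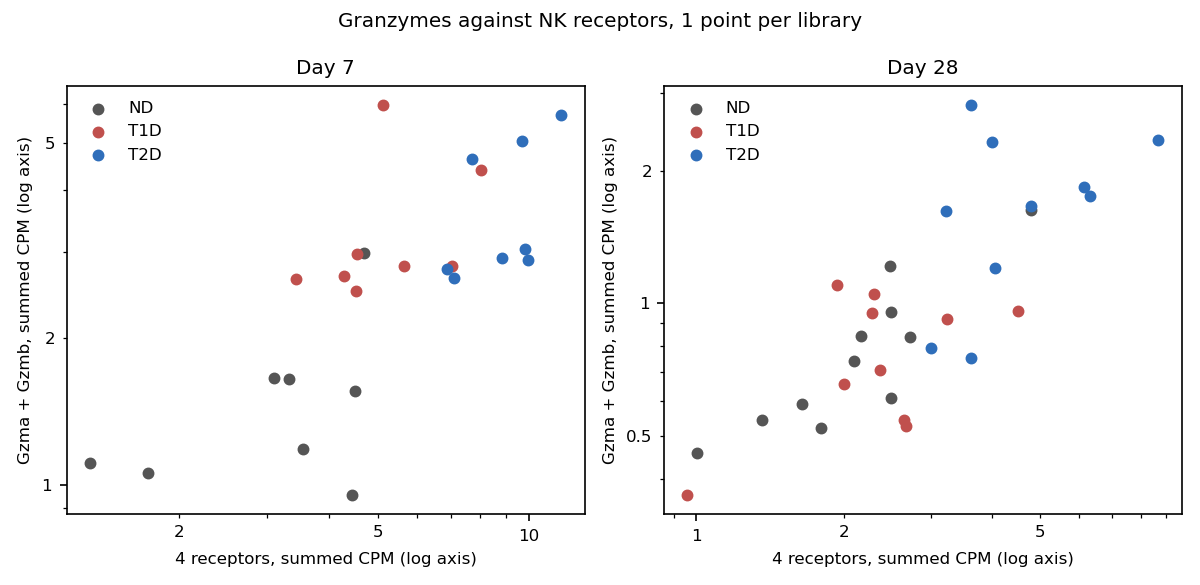
Summed CPM of Gzma and Gzmb (y) against summed CPM of Klrk1, Klrb1c, Klre1 and Ncr1 (x), both on log axes, 1 point per library, for day 7 and day 28. At day 7 the 4 receptors sum to 1.33 to 4.69 in ND, 3.44 to 8.04 in T1D and 6.86 to 11.6 in T2D, and the granzymes to 0.958 to 2.98, 2.49 to 5.96 and 2.65 to 5.69.

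In the late scar, T2D against ND tissue at day 28, 8 of the 10 genes were higher in T2D and 0 lower, where 7.21% of all 18901 genes tested were called higher and 3.5% lower (n = 10 against 11). The 8 were 3 receptors, all 4 granule genes and Ccl5, with changes of 0.87 to 1.41. Ncr1 (0.45) and Eomes (0.87) did not pass. The median change was 1.08 over the 10 and 0.00 over all genes. Every gene overlapped between the groups, and 0.354% of all genes had every T2D library above every ND library.

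**Figure D4:**
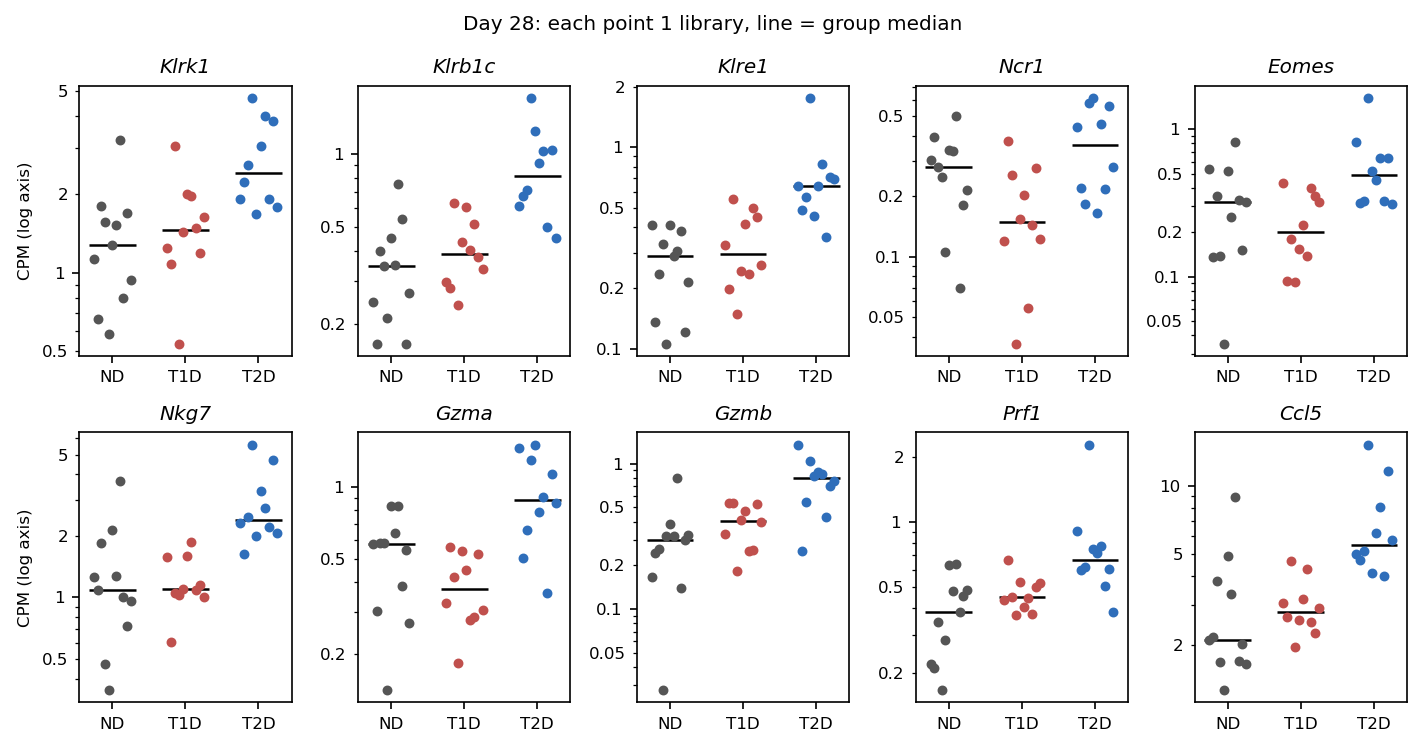
Levels in CPM (log axis) of the 10 genes in each library at day 28, by group (11 ND, 10 T1D and 10 T2D libraries), with the group median as a line. The T2D medians lie above the ND medians for all 10 genes, by the least for Ncr1 (0.361 against 0.279), and ND replicate 8 is the highest ND point of 9 genes.

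Klre1 ran from 0.106 to 0.412 CPM (median 0.287) in ND at day 28 and from 0.359 to 1.75 (median 0.644) in T2D, a change of 1.41 (SE 0.276, adjusted p = 0.000949). In 9 of 10 T2D libraries it lay above every ND library. Klrb1c ran from 0.166 to 0.755 (median 0.346) in ND and from 0.453 to 1.70 (median 0.815) in T2D (1.32, SE 0.257, adjusted p = 0.000902). Klrk1 ran from 0.581 to 3.22 (median 1.28) in ND and from 1.68 to 4.67 (median 2.41) in T2D (1.00, SE 0.270, adjusted p = 0.0144). For both, all 10 T2D libraries lay above the ND mean of log2 CPM. Ncr1 ran from 0.0696 to 0.503 (median 0.279) in ND and from 0.165 to 0.614 (median 0.361) in T2D, with an interval for the change of -0.20 to 1.10. Eomes ran from 0.0352 to 0.821 (median 0.322) in ND and from 0.313 to 1.62 (median 0.488) in T2D (SE 0.375, adjusted p = 0.139).

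Gzmb ran from 0.0277 to 0.794 CPM (median 0.301) in ND at day 28 and from 0.251 to 1.35 (median 0.793) in T2D (1.36, SE 0.314, adjusted p = 0.00458). Prf1 ran from 0.166 to 0.635 (median 0.383) in ND and from 0.383 to 2.27 (median 0.667) in T2D (1.06, SE 0.254, adjusted p = 0.0061). Nkg7 ran from 0.352 to 3.73 (median 1.09) in ND and from 1.63 to 5.59 (median 2.40) in T2D (1.10, SE 0.296, adjusted p = 0.0144). Of 10 T2D libraries, 5 lay above every ND library for Gzmb, 5 for Prf1 and 2 for Nkg7. Gzma ran from 0.141 to 0.834 (median 0.576) in ND and from 0.359 to 1.5 (median 0.882) in T2D (0.87, SE 0.263, adjusted p = 0.0303). Ccl5 ran from 1.27 to 8.88 (median 2.10) in ND and from 4.03 to 15.1 (median 5.49) in T2D (1.19, SE 0.291, adjusted p = 0.00717), and the ND maximum was 1 library, replicate 8.

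T2D replicate 4 was the highest of its group at day 28 for Klrk1, Klrb1c, Klre1, Eomes, Nkg7, Prf1 and Ccl5. Without it 7 of the 10 were called, with Gzma at 0.80 (adjusted p = 0.0598), Prf1 at 0.74 and Klre1 at 1.15. Gzma also lost its call without any of 5 other single libraries. Without ND replicate 8, 9 of the 10 were called, Eomes being added at 1.10 (adjusted p = 0.0479).

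T cell markers rose with these genes in T2D tissue at day 28. Of the 14, 12 rose and 0 fell (median 1.18), with Cd3e at 1.36 and Cd8a at 1.10 (adjusted p = 0.0278), and their sum ran from 11.3 to 40.1 CPM in ND and from 17.7 to 143 in T2D. Of 11 pan-leukocyte genes 6 rose (median 0.59), and of 6 B cell markers 0 were called (median 1.35). Of 10 monocyte and macrophage markers 5 rose (median 0.48), with Plac8 at 1.99 and Ly6c2 at 1.57, and of 7 neutrophil markers 0 were called. Their part in the changes of the 10 was not tested. With the T cell list as a covariate the changes of the 10 ran from 0.03 (Eomes) to 1.01 (Gzmb) and 0 were called, while 941 of all genes were. That list holds Cd8a, which varied with the 10 within groups (r = 0.81), and no conclusion about the source is drawn from the fit. With the pan-leukocyte covariate 3 of the 10 were called, Klrb1c (0.95), Klre1 (0.76) and Gzmb (1.03), with 1563 of all genes. Summing libraries by the first number of their names left Klrb1c and Klre1 called, with 427 of all genes.

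**Figure D5:**
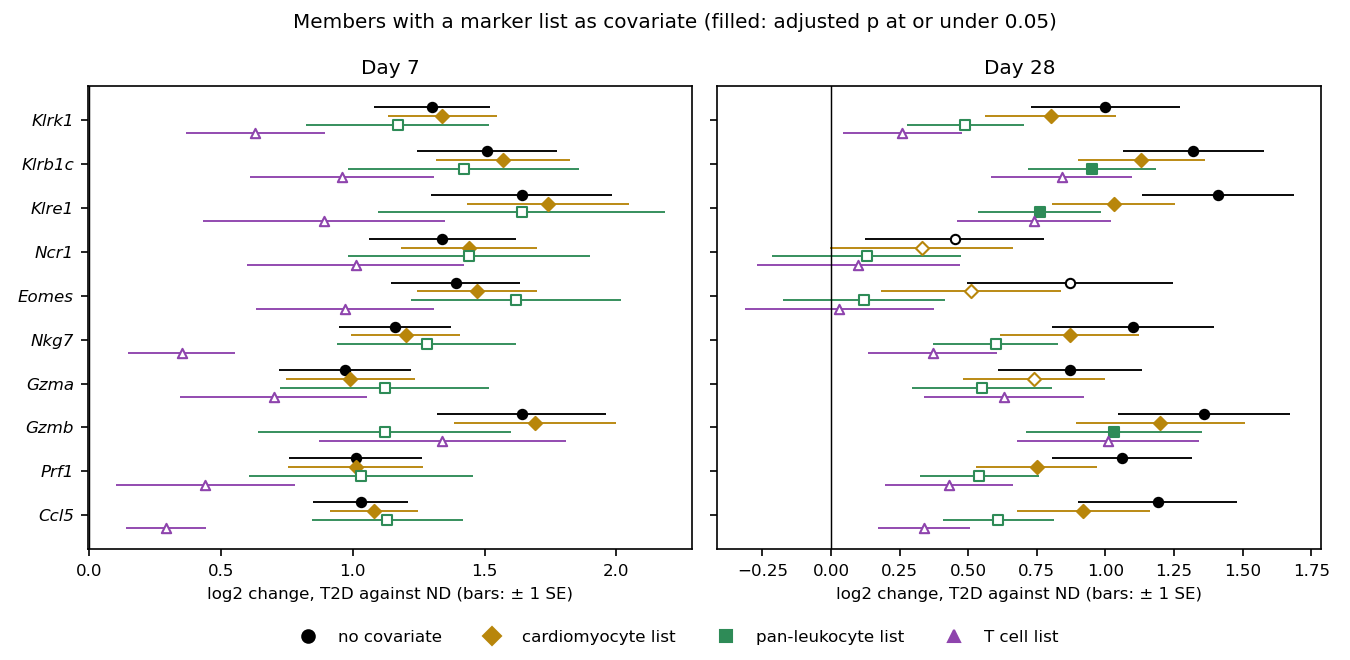
The T2D against ND log2 change of each gene (x axis, bars of 1 SE) with no covariate and with the mean level of a marker list as covariate, filled where the adjusted p is at or under 0.05. At day 7 the T cell covariate leaves changes of 0.29 to 1.34 and at day 28 of 0.03 to 1.01, none of them called. The summed T cell level did not overlap between ND and T2D at day 7, so that fit cannot set list and group well apart.

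Among related genes in T2D tissue at day 28, of 20 other NK receptors 5 rose and 0 fell (median 0.70), with Klrc1 at 1.45, Cd226 at 1.11, Klrd1 at 1.01 and Cd96 at 1.32. Of 11 transcription factors 4 rose and 1 fell. Runx3, a RUNX factor of cytotoxic lymphocytes, rose by 1.31 (SE 0.216, adjusted p = 0.000122), from 2.00 to 6.61 CPM in ND and 7.50 to 21.1 in T2D without overlap. Tbx21 rose by 1.37 (SE 0.281, adjusted p = 0.00159) and Stat4 by 1.39, and Prdm1 fell by 0.60. Of 15 further granule and death ligand genes 8 rose, led by Srgn (0.51), Gzmk (1.92), Rab27a (0.72), which docks granules, and Fasl (1.60), the Fas ligand.

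Adaptor genes rose in 5 of 9 cases in T2D tissue at day 28, with Sh2d2a at 1.61 and Zap70, a kinase of NK and T cell receptors, at 1.07. Of 12 tested cytokine and receptor genes 4 rose, Il2rb (1.33), Il2rg (0.71), Il12rb1 (1.37) and Il18r1 (0.96), and Il15 was at 0.14 (adjusted p = 0.36). Of 14 chemokine genes 5 rose, among them Cxcl9 (1.26), Cxcl10 (0.80) and their receptor Cxcr3 (0.88). Of 13 tested ligands 4 rose, which also led the day 7 list: B2m (0.88), H2-K1 (0.94), H2-T23 (0.78) and H2-D1 (0.84). All 12 interferon-stimulated genes rose (median 1.15), with Irf7 at 1.99.

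In T1D against ND tissue at day 28, none of the 10 genes was called in either direction, where 2.60% of all genes were called higher and 1.41% lower (n = 10 against 11). The changes ran from -0.62 to 0.40, with a median of 0.08 (0.00 over all genes) and 5 of the 10 above 0. Every gene overlapped between the groups, and 0.143% of all genes had every T1D library above every ND library. At an unadjusted p under 0.05 the count was also 0 in edgeR, and DESeq2 called 0. Gzmb ran from 0.184 to 0.540 CPM (median 0.405) in T1D and was at 0.40 (interval -0.24 to 1.03), and Prf1, from 0.369 to 0.667 (median 0.447), was at 0.27. Ncr1 ran from 0.0369 to 0.375 (median 0.148) in T1D and was at -0.62 (interval -1.30 to 0.06), Eomes at -0.46 and Gzma at -0.41 (interval -0.94 to 0.13). Klre1, Klrb1c and Klrk1 were at 0.32, 0.22 and 0.18, and Nkg7 and Ccl5 at -0.17 and -0.02. Of the T cell markers 0 of 14 were called (median 0.02). Of the 20 other NK receptors Klra9 was the 1 called, lower (-1.2), and of the factors Prdm1 (-0.91).

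Levels were lower in T1D than in T2D tissue at day 28. Of the 10 genes 5 were lower and 0 higher, where 2.03% of all genes were called lower and 1.19% higher (n = 10 against 10). Gzma ran from 0.184 to 0.562 CPM (median 0.374) in T1D and from 0.359 to 1.5 (median 0.882) in T2D, and fell by 1.27 (SE 0.273, adjusted p = 0.00577). Nkg7 fell by 1.27 (SE 0.306, adjusted p = 0.0165), and 9 of 10 T1D libraries lay below every T2D library (all 10 did for 0.206% of all genes and for none of these). Ccl5 fell by 1.21 (SE 0.300, adjusted p = 0.0196). Klrb1c and Klre1 both fell by 1.10 (SE 0.262 and 0.281, adjusted p = 0.0147 and 0.0252).

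The other 5 were at -0.79 to -1.33 without passing: Eomes at -1.33 (adjusted p = 0.0553), Ncr1 at -1.07 (0.0797), Gzmb at -0.97 (0.089), Klrk1 at -0.82 (0.0964) and Prf1 at -0.79 (0.0847). Their intervals of 2 SE lay below 0. The median over the 10 was -1.10, and -0.01 over all genes. Of the T cell markers 7 of 14 were lower in T1D (median -1.20), with Cd3e at -1.45. With their mean as a covariate 0 of the 10 were called, while 237 of all genes were called higher and 331 lower. Gzma was then at -1.02 (adjusted p = 0.0594), Klrb1c at -0.64, Klre1 at -0.50, Nkg7 at -0.45 and Ccl5 at -0.29. Without T2D replicate 4 the count was 3, as Ccl5 (-1.02, adjusted p = 0.0509) and Klre1 (-0.84, adjusted p = 0.075) were lost. DESeq2 called all 10, with 995 of all genes, and sums by the first number of the library names 0, with 125 of all genes.

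A fit of all 6 groups asked whether the diabetic effects changed between the days, over 20421 genes present in both sets of counts. The T1D effect on Gzma at day 28 minus that at day 7 was -1.15 log2 units (SE 0.379, adjusted p = 0.0352), the 1 call among the 10, where 12.5% of all genes were called in either direction. Without the low-count filter and in limma-voom this call was absent. The T1D effect on Gzmb moved by -1.21 (SE 0.467, adjusted p = 0.0762), and DESeq2 called both granzymes. The T2D effect differed between days for 0 of the 10 in edgeR (1.51% of all genes), also 0 at an unadjusted p under 0.05 and in DESeq2. Its shifts ran from -0.90 for Ncr1 (interval -1.81 to 0.01) to 0.14 for Ccl5 (interval -0.61 to 0.89).

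Within groups the 10 genes varied together to unequal degrees, given here as a description over libraries that share depth and tissue makeup. Over the 24 day 7 libraries, as deviations from group means, Pearson r between pairs of the 10 ran from -0.12 to 0.82 (median 0.39, 45 pairs), and over the 31 day 28 libraries from 0.13 to 0.84 (median 0.51). At day 7 Klrk1 was closest to the mean of the other 9 (r = 0.85) and Prf1 the least close (0.24), while at day 28 Ccl5 was closest (0.83) and Gzmb the least (0.52). Of 13408 other genes, the 8 most like the mean of the set on both days were Cd8a (r = 0.78 at day 7 and 0.81 at day 28), Ms4a4b (0.76 and 0.88), H2-Aa (0.74 and 0.85), Lst1 (0.78 and 0.73), Igsf9 (0.73 and 0.78), H2-Eb1 (0.72 and 0.84), B2m (0.72 and 0.80) and Cd72 (0.77 and 0.72). The ranking had an expression floor: a gene's average log2 CPM had to reach 0. Tbx21 and Klrc1 averaged below 0 in every day 28 group, so scarce NK genes like these could not be listed. Of the set itself, Klrb1c, Klre1, Ncr1, Eomes, Gzma, Gzmb and Prf1 also averaged below 0 in every day 28 group. Cd8a encodes the CD8 coreceptor, but with this floor the list cannot weigh NK cells against CD8 T cells as the source.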

How the data were processed

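RNA was extracted and made into poly(A), strand-keeping libraries, per the labels' protocols. The authors deposited raw counts per Ensembl gene, 1 set per day. The submitters' processing notes name mm39 and DESeq2. The aligner, counter, strand setting and gene models were not given in the sources used here. How reads shared by overlapping genes or near-identical copies were counted is therefore unknown. Of counts from 1 to 49, 76.4% were even at day 7 and 75.2% at day 28. The reason was not tested, so the raw counts given here may not equal numbers of sequenced fragments. Symbols and exon lengths came from GENCODE M21 (GRCm38) by identifier (51948 and 51880 paired), and promoter sequences from RefSeq (GRCm38.p6).

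Counts were tested in R 4.3.3 with edgeR 4.0.16: TMM, filterByExpr (minimum count 10, total 15), glmQLFit and glmQLFTest, with all 3 groups of a day in 1 fit and Benjamini-Hochberg adjustment over all genes tested. SE is the log2 change over the square root of F, and intervals span 2 SE each side. CPM uses TMM-scaled library sizes, and log2 CPM a prior count of 2. The scripts were tested on simulated data. No pair of libraries within a group was a repeat (lowest chi-square per gene 17.6 at day 7 and 25.0 at day 28, over genes with at least 50 counts).

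The 10 genes and all lists were chosen with earlier results of these data known. The text names all 10, up to 4 called genes with the smallest p of each other list, and fixed defining markers, apart from some whose values are not reported here. Alternatives were RLE scaling, no low-count filter, DESeq2 1.42.0, limma-voom with quality weights (limma 3.58.1), 2 groups per fit, a replicate block, 3 marker-list covariates, counts summed over libraries whose names begin with the same number (what it stands for is unknown), each library left out in turn, and, chosen after seeing the data, day 7 without ND and T1D replicate 4.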

Additional observations from a re-analysis of the deposited data

Results flagged for a closer look

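In 4 of 50 sets of libraries examined (1 gene in 1 group of 8 to 10), an end library stood farther from its neighbour than Dixon's 95% criterion allows, and chance alone gives about 1 in 20. Klrb1c in T2D replicate 6 at day 7 was at a log2 CPM of -0.3, below the next library at 0.55. Ncr1 in ND replicate 5 at day 7 was at -2.84 (4 counts), below the next at -1.55. In T2D replicate 4 at day 28, Klre1 was at 0.83 with the next library at -0.23, and Prf1 at 1.2 with the next at -0.09. That library also had the highest summed level of T cell markers of its group, 143 CPM, against a group median of 28.1. The T1D effect on Gzma differed between the days by a test of the difference in edgeR, day 28 minus day 7 being -1.15 log2 units (adjusted p = 0.0352). It was 1 call among the 10, where 12.5% of all genes were called, and was absent in limma-voom and without the low-count filter.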

How the results depend on the processing

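Counts below are of the 10 genes called, against 3 (T1D over ND) and 10 (T2D over ND) at day 7, 8 (T2D over ND) at day 28, 5 lower in T1D than T2D at each day, and 1 T1D effect that differed between days. The cause of each shift was not tested. With the pan-leukocyte covariate the counts were 0, 0 and 3 (T2D over ND, day 28), and 3 lower in T1D than T2D at day 28. All genes called in either direction in these fits numbered 1, 2, 1563 and 1555. With the T cell covariate they were 0 for T2D over ND and 0 for T1D below T2D at both days. For T1D against T2D, that covariate called 0 of all genes at day 7. At day 28 it called 237 of all genes higher and 331 lower. Sums by the first number of the name, with fewer samples, gave 1, 5 and 2, and 0 for T1D below T2D at both days. Of all genes, those sums called 1459, 176 and 427, and 0 and 125 for T1D against T2D at days 7 and 28. A 0 where no gene at all was called says nothing about the 10. For T1D below T2D, day 7 gave 3 without the low-count filter, 8 in limma-voom and 3 with the cardiomyocyte covariate, and day 28 gave 10 in DESeq2 and 8 in limma-voom. Of all genes in T1D against T2D, the main fit called 492 at day 7 and 607 at day 28, in either direction. The day 7 alternatives called 289, 2927 and 576 in the same order, and those of day 28 called 995 and 846. Leaving out 1 library gave 2 to 6 at day 7 and 3 to 7 at day 28. T1D effects that differed between days numbered 0 without the filter, 2 in DESeq2 and 0 in limma-voom.

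Sign changes were all in genes not called. Limma-voom gave Ccl5 -0.11 and 0.16 (T1D over ND, days 7 and 28), Gzmb 0.06 (T1D over T2D, day 7), T1D effects between days of 0.21 (Klre1) and 0.24 (Ccl5), and T2D effects of 0 (Klrk1), 0.02 (Klrb1c), 0.04 (Nkg7) and -0.33 (Prf1). For T1D over ND the T cell covariate gave Nkg7 -0.06, Prf1 -0.08 and Ccl5 -0.09 at day 7 and Ccl5 0.06 at day 28, and sums gave Klrk1 -0.04 and Ccl5 0.01 at day 28. Gzmb in T1D over T2D at day 7 was 0.18, 0.14 and 0.05 with the T cell, cardiomyocyte and pan-leukocyte covariates, and 0.04 without ND and T1D replicate 4. With 1 library left out, T1D over ND at day 7 ran from -0.04 to 0.22 for both Prf1 and Ccl5, Gzmb in T1D over T2D from -0.17 to 0.11, and T1D over ND at day 28 from -0.27 to 0.11 for Nkg7 and -0.11 to 0.28 for Ccl5.

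The main fits did not pair libraries by replicate number. The r of same-numbered deviations went down to -0.366 at day 7 and -0.424 at day 28. In no pair of groups did more than 3 libraries correlate best with their own number. The highest median r of same-numbered libraries was 0.153, for T1D and ND at day 7. There the median of differently numbered libraries was 0.001, and 5 of 8 same-numbered pairs were over 0.1. With a replicate block the counts were 3, 10 and 7, with 4 (day 7) and 5 (day 28) for T1D below T2D, and Ccl5 in T1D over ND at day 28 was 0.06. Of all genes, the block called 4136, 1423 and 1379, and 373 and 375 for T1D against T2D, in either direction. Low counts limit precision: the smallest count was 2 for Klrb1c and Klre1 at day 7 and for Ncr1, Eomes and Gzmb at day 28.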
